A study of Mus musculus with 40 samples.

Results

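Expression of 10 genes that mark or serve the alveolar type 2 cell was examined in lung tissue from mice treated with NTCU, out of 37310 genes in the table. The genes were the surfactant protein genes Sftpc, Sftpb, Sftpa1 and Sftpd, the lamellar body genes Abca3 and Lamp3, Napsa, Slc34a2, the transcription factor gene Nkx2-1, and Mfsd2a. The first 9 genes were listed for their known place in the alveolar type 2 cell. Mfsd2a was added because earlier results of these data had shown it higher in high-grade samples than in normal samples, so its values across histologic grade are given as a description without a test. All 10 genes passed the filter on low values, which kept 15630 genes.

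RNA was extracted from frozen whole lung sections and from tissue collected by laser capture microdissection (LCM), in which selected cells are cut from a section under a microscope. The animals were female SWR/J and A/J mice, strains that develop lung squamous cell carcinoma under topical NTCU, a carcinogen. Normal samples came from mice that received the acetone vehicle (0 μmol NTCU). Mild dysplasia samples came from SWR/J mice after a total of 15 μmol, and high-grade samples came from mice after 14 to 50 μmol, so that dose and histologic grade cannot be told apart. After quality control by the authors 25 of 40 samples remained. They comprised 7 normal samples (3 LCM and 4 whole lung), 5 samples with mild dysplasia (3 LCM and 2 whole lung) and 13 high-grade samples (7 LCM and 6 whole lung). The high-grade samples consisted of 9 samples with moderate to severe dysplasia, 2 with severe dysplasia, 1 carcinoma in situ and 1 SCC tumor. By strain, 17 samples came from SWR/J and 8 from A/J mice. The labels do not say which samples share an animal, so p-values measure the spread between samples, and a whole lung section also holds tissue other than its lesion. The ages of the mice at sampling are not given in the labels.

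Alveolar type 2 cells line the gas exchange surface together with the flat alveolar type 1 cells, and they make surfactant, the film of phospholipid and protein that keeps alveoli open at low volume. Surfactant is stored in lamellar bodies, secreted, and then taken up again by type 2 cells or cleared by alveolar macrophages. The airway epithelium, from which squamous lesions arise in this model, is built mainly of club, ciliated and basal cells, and it expresses some surfactant genes, but Sftpc is largely restricted to type 2 cells in the adult lung. In RNA from bulk samples, fewer type 2 cells and less RNA per type 2 cell cannot be told apart.

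Expression is given as log2 CPM, the count of a gene scaled to the library total with TMM factors, on the log2 scale. Counts summed to between 2667387 and 16534728 per sample, and the median transcript integrity number (TIN), a measure of RNA quality, was between 21.7 and 75.1. The labels of sample type were checked against markers of other lung cells. Sample 70, labelled as whole lung, had a mean over 8 alveolar type 1 markers of 3.92 log2 CPM and a mean over 6 endothelial markers of 3.72, the lowest among the 12 whole lung samples. Sample 46, labelled as normal tissue collected by LCM, had means of 7.32 and 7.50, the highest among the 13 LCM samples. LCM samples 47 and 48 had type 1 means of 7.29 and 7.28. For the ciliated cell markers the mean was 6.57 in sample 46 and 2.58 in sample 70, and the highest among whole lung samples was 5.40 (sample 74). Samples 46 and 70 are normal samples. Whether their labels of sample type were exchanged was not tested, and the labels were kept. Fitted comparisons and correlations are given with and without them. The grade and the free-text description disagree for SM1 (grade normal) and 7c (grade mild dysplasia), and these samples were kept in the group of their grade.

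The annotated gene starts show where sequence motifs of lung transcription factors lie in these genes. RefSeq promoter sequences were available for 7 of the 10 genes (Sftpb, Sftpa1, Abca3, Lamp3, Slc34a2, Nkx2-1 and Mfsd2a). The 250 bases before the gene start are shown 5′ to 3′ on the strand of the gene for 3 genes with a match and for Mfsd2a, in the GRCm38.p6 build, with matches in capitals. Sftpb is shown on the plus strand of chr6:72304360-72304609, Sftpa1 on the plus strand of chr14:41131538-41131787, Slc34a2 on the plus strand of chr5:53049103-53049352, and Mfsd2a on the minus strand of chr4:122961189-122961438.
Sftpb: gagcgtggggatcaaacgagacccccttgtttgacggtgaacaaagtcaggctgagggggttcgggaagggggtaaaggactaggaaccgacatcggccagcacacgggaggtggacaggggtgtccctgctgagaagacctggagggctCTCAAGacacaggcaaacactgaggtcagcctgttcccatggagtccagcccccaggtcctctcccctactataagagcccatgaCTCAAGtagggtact
Sftpa1: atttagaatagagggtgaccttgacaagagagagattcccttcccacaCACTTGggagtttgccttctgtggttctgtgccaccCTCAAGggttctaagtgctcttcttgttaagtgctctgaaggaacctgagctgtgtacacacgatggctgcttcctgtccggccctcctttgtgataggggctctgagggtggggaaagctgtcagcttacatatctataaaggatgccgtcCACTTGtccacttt
Slc34a2: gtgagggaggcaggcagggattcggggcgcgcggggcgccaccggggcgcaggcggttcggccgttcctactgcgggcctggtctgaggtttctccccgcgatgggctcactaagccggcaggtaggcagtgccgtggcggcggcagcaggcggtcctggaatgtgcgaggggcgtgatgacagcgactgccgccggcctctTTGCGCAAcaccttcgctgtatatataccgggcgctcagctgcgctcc
Mfsd2a: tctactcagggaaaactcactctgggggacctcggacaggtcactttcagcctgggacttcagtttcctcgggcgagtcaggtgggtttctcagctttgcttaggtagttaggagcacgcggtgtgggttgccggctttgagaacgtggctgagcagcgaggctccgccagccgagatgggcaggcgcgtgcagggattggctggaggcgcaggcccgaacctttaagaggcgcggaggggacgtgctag

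Capitals in Sftpb mark CTCAAG, a core that NKX2-1 can bind, with first bases at -100 and -15 relative to the gene start. In Sftpa1, CTCAAG lies at -166, and CAAGTG, another such core, lies on the opposite strand at -202 and -14, where it reads CACTTG. In Slc34a2, the C/EBP palindrome TTGCGCAA lies at -48. Each motif was searched on both strands in windows of the same length before 27025 gene starts, of which 13.6% held CTCAAG, 11.6% held CAAGTG and 0.170% held TTGCGCAA. The forkhead motif TGTTTAC, found in 3.09% of all windows, was present in Lamp3 at -92. No match to TTGCACAA, a second C/EBP motif (0.907% of windows), or to the GATA motif AGATAA (10.3%) was found in the 7 windows, and Mfsd2a, Abca3 and Nkx2-1 held none of the 6 motifs. These matches are letters in a window and do not show binding.

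Levels were compared between genes as CPM divided by exon length in kilobases (CPM/kb). Surfactant protein genes were the most abundant of the 10. In the 12 whole lung samples the median was 7773 CPM/kb for Sftpc (range 36.5 to 24761), 632 for Sftpa1, 405 for Sftpb and 352 for Sftpd. Sftpc was above Sftpa1 in 12 of 12 of these samples, whereas Sftpa1 was above Sftpb in 7 of 12 and Sftpb above Sftpd in 8 of 12, so the order of the latter 3 genes varied between samples. Sftpd in turn was above Slc34a2 in 12 of 12. The remaining medians in whole lung were 74.6 CPM/kb for Slc34a2, 66.7 for Napsa, 27.9 for Lamp3, 27.1 for Abca3, 18.9 for Nkx2-1 and 7.88 for Mfsd2a. In the 13 LCM samples Sftpc remained highest, at a median of 763 CPM/kb (range 26.8 to 7263), followed by Sftpd at 364, Sftpa1 at 190 and Sftpb at 69.1. Sftpd, a collectin that binds microbial sugars, thus had nearly the same median in both sample types. Lamp3 at 3.55 and Mfsd2a at 3.76 CPM/kb were lowest in LCM samples, and Mfsd2a was the higher of these genes in 7 of 13 samples. As a share of all counts, the 10 genes together took a median of 1.12% of a whole lung library (range 0.0189% to 3.51%) and 0.197% of an LCM library (range 0.0441% to 1.15%).

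**Figure D1:**
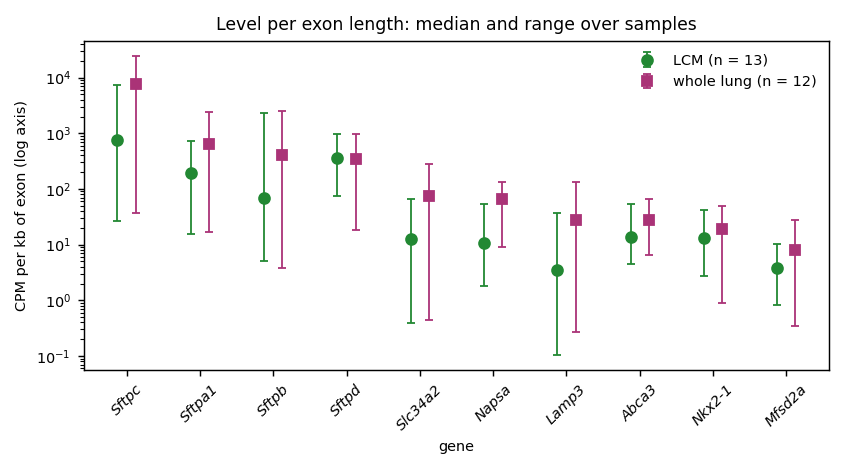
Levels of the 10 genes in CPM per kilobase of exon (log axis) in 13 LCM samples (circles) and 12 whole lung samples (squares). Markers are medians and bars run from the lowest to the highest sample. Sftpc is highest in both sample types, and the medians of Sftpd nearly coincide at 364 and 352 CPM/kb.

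LCM samples were compared with whole lung samples to see how far the alveolar transcripts are present in tissue that was cut out. In edgeR's quasi-likelihood test with histologic grade, TIN and strain as covariates, 5 of 10 genes were lower in LCM samples at an adjusted p (Benjamini-Hochberg) under 0.05 and 0 were higher. Across all 15630 genes, 9.05% were called lower. All 10 log2 fold changes were negative, with a median of -1.64, and the median over all genes was -0.03. Most of these genes move together across samples, so shared signs here and in later comparisons are not separate observations. At an unadjusted p under 0.05 there were 8 of the 10 genes, and 4753 of all 15630 genes in either direction.

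Sftpc encodes surfactant protein C, a small hydrophobic protein of the surfactant film. It lay between 4.45 and 12.51 log2 CPM in LCM samples with a median of 9.26, and between 4.89 and 14.28 in whole lung with a median of 12.61. The ranges overlapped, because samples 46, 5, 7, 47 and 48 were at 11.58 or more log2 CPM after LCM and sample 70 was at 4.89 in whole lung. The model put the difference at -3.44 log2 units (standard error 1.08, adjusted p = 0.0366, edgeR). Lamp3, which encodes a membrane protein of lamellar bodies, changed by -3.49 (standard error 1.07, adjusted p = 0.0330, edgeR), from a median of 6.49 log2 CPM in whole lung to 3.59 in LCM samples. Slc34a2, a phosphate transporter of the apical membrane, changed by -3.18 (standard error 0.96, adjusted p = 0.0296, edgeR), and Napsa, a protease that processes the surfactant protein B precursor, by -1.64 (standard error 0.49, adjusted p = 0.0283, edgeR). Mfsd2a, a sodium-dependent transporter of lysophospholipids, was lower by less, with a log2 fold change of -1.01 (standard error 0.32, adjusted p = 0.0362, edgeR).

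The other 5 genes were not called. Abca3, the transporter that loads phospholipid into lamellar bodies, was at -1.02 on the log2 scale (standard error 0.38, adjusted p = 0.0710). Sftpb, needed for lamellar body formation, was at -2.28 (standard error 0.94, adjusted p = 0.106), and Sftpa1, a collectin, was at -1.64 (standard error 0.78, adjusted p = 0.160). Nkx2-1, a homeobox factor that is also active in club cells, was at -0.74 (standard error 0.48, adjusted p = 0.313). Sftpd had the smallest difference, -0.22 (standard error 0.49, adjusted p = 0.803, edgeR), with an approximate interval from -1.19 to 0.76. Its median was 8.98 log2 CPM in LCM samples and 8.93 in whole lung. Over the 13 LCM samples the SD was 3.10 for Sftpc, 2.75 for Lamp3 and 2.55 for Slc34a2, against 1.20 for Sftpd, 0.91 for Abca3 and 1.07 for Nkx2-1.

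**Figure D2:**
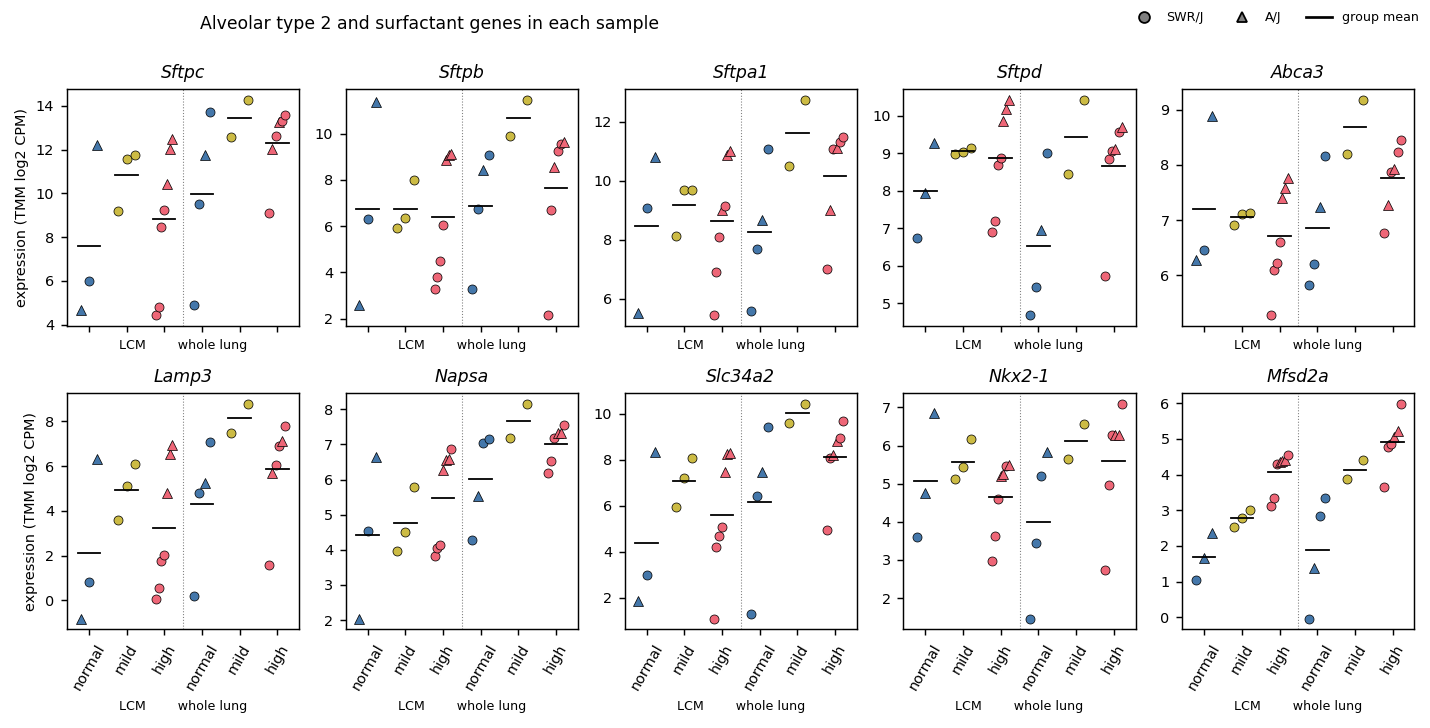
Expression of each gene (TMM log2 CPM) in the 25 samples by sample type and histologic group. Circles are SWR/J samples, triangles are A/J samples, and lines are group means. Among the high-grade LCM samples the A/J samples are at 10.45 to 12.51 for Sftpc and the SWR/J samples at 4.45 to 9.26. These samples differ in TIN and NTCU dose as well as strain. Mfsd2a is higher in high-grade than in all normal samples within each sample type, as are 2.21% of all genes in LCM samples and 0.889% in whole lung. It was chosen on this contrast, so nothing is read from it.

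The calls depended on single samples. Without samples 46 and 70, 6 genes were called lower (Sftpc, Sftpb, Abca3, Lamp3, Napsa and Slc34a2), and Mfsd2a was at -0.97 with an adjusted p of 0.0528 (edgeR). Over all genes 2514 were then called in either direction, against 2289 with them. Of the 10 genes, 7 were called without sample 46 alone, and 6 each without samples 70 and 72. Leaving out 1 of the samples 41, 74 or 7c gave 0 calls, leaving out 2B, 45 or 71 gave 1, leaving out 40, 42 or 5 gave 3, and leaving out 73 or 76 gave 4. Each of the remaining 11 samples could be left out with 5 calls. Over all such fits the adjusted p of Sftpc stayed between 0.0161 and 0.0722 and its log2 fold change between -3.83 and -2.99. Within the 17 SWR/J samples the log2 fold changes were -4.56 for Sftpc, -4.77 for Lamp3 and -4.34 for Slc34a2 (adjusted p = 0.0312, 0.0215 and 0.0243, edgeR), and Abca3 was at -1.52 (adjusted p = 0.0323). Within the 8 A/J samples they were 0.07 for Sftpc (standard error 2.90), 0.87 for Lamp3 (standard error 2.82) and -0.14 for Slc34a2 (standard error 2.23), and 0 genes of the whole table were called.

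Markers of other cells moved in the same comparison. In LCM samples 4 of 8 alveolar type 1 markers, 6 of 6 endothelial markers and 5 of 6 alveolar macrophage markers were called lower, and 3 of 6 club cell markers, 3 of 5 ciliated cell markers and 1 of 6 basal cell markers were called higher, where 5.6% of all genes were called higher. Examples were Ager, a receptor of type 1 cells (log2 fold change -2.79, adjusted p = 0.0185), Cldn5 of the endothelium (-2.70, adjusted p = 0.00192) and the secreted club cell genes Bpifa1 and Scgb3a1 (3.28 and 3.02, adjusted p = 0.0228 and 0.0316, edgeR). The summed level of the 6 endothelial markers was 74.5 to 1171 CPM in LCM samples and 139.6 to 1713 CPM in whole lung, and no endothelial marker was at 0 in all samples of a type. With the mean of the type 1 markers as a further covariate, a choice made after the data were seen, the log2 fold change of Sftpc was -0.82 (standard error 0.67, adjusted p = 0.485) and 1 of 10 genes was called. That gene was Sftpd, at 1.46 (standard error 0.39, adjusted p = 0.0246, edgeR), which was higher in LCM samples in this fit. The type 1 mean moves with the mean of the 9 genes, with a Pearson's r of 0.931 in LCM samples and 0.885 in whole lung. It thus carries much of the same variation. Nothing is read from lost calls or turned signs in this or later fits with it. Of the remaining lists, 1 of 5 dendritic cell markers was called lower (Fscn1, -1.22, adjusted p = 0.00255, edgeR) and 0 of 5 tested squamous markers were called.

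Mild dysplasia was compared with normal tissue to ask whether the alveolar genes move early in the sequence of lesions. Of the 9 genes tested, 1 was called higher (Sftpd) and 0 were called lower, where 5.22% of all genes were called higher. All 9 log2 fold changes were positive, with a median of 1.50 and a range from 0.66 to 3.36, against -0.03 for the median over all genes. These signs are not separate observations, because the 9 genes move together across samples. At an unadjusted p under 0.05 there were 4 of the 9 genes, and 5128 of all 15630 genes in either direction.

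Sftpd was at 9.02, 9.14 and 8.98 log2 CPM in the 3 LCM samples with mild dysplasia and at 9.28, 7.95 and 6.73 in the 3 normal LCM samples. In whole lung it was at 8.45 and 10.41 with mild dysplasia and at 6.94, 4.69, 9.01 and 5.43 in normal tissue. Sample 46 and sample 71 gave the highest normal values, and the groups overlapped in both sample types. The model gave a difference of 2.53 log2 units (standard error 0.79, adjusted p = 0.0418, edgeR). The call was lost when any of 11 samples was left out, with an adjusted p of 0.0943 without 2B, 0.0822 without 70, 0.0949 without 72 and 0.0543 without SM1. It was 0.0569 without 5, 0.0616 without 7, 0.0598 without 73, 0.1045 without 74 and 0.0572 without 7c, and among high-grade samples 0.0644 without 40 and 0.0502 without 45 (edgeR). Across all fits that left out 1 sample the log2 fold change was 2.04 to 3.06.

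The largest differences with mild dysplasia were those of Lamp3 (3.36, standard error 1.42, adjusted p = 0.107), Sftpc (3.29, standard error 1.51, adjusted p = 0.133) and Slc34a2 (3.07, standard error 1.35, adjusted p = 0.118, edgeR), and none passed the threshold. Sftpc was at 11.58, 11.76 and 9.21 log2 CPM in LCM samples with mild dysplasia and at 12.23, 4.64 and 5.98 in normal LCM samples, of which the high value is sample 46. In whole lung it was at 12.59 and 14.28 with mild dysplasia and at 11.76, 4.89, 13.74 and 9.53 in normal tissue, of which the low value is sample 70. Without sample 46, 4 genes were called higher, namely Sftpc (4.43, adjusted p = 0.0462), Sftpd (2.78, adjusted p = 0.0246), Slc34a2 (3.98, adjusted p = 0.0452) and Nkx2-1 (2.04, adjusted p = 0.0496, edgeR). Calls over all genes in either direction then rose as well, from 1967 of 15630 to 3128 of 15616. Without sample 71, which is normal whole lung, 2 of the 9 genes were called (Sftpd and Lamp3), and 2727 of 15650 over all genes. Without samples 46 and 70 together 0 of 9 genes were called, with Sftpd at 2.46 (adjusted p = 0.0534) and Sftpc at 4.06 (adjusted p = 0.0808, edgeR). Over all genes 1715 of 15637 were called in that fit.

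Abca3 (0.87, adjusted p = 0.315), Napsa (0.66, adjusted p = 0.553), Sftpb (1.20, adjusted p = 0.559), Sftpa1 (1.50, adjusted p = 0.346) and Nkx2-1 (1.45, adjusted p = 0.206, edgeR) were further from the threshold. In whole lung, the 2 samples with mild dysplasia were above all 4 normal samples for Sftpb, Abca3, Lamp3, Napsa and Slc34a2 of the 9 tested genes. Of all genes 14.1% had ranges apart in this direction. In LCM samples the same held for 0 of 9 genes, with 6.56% of all genes. Mfsd2a had ranges apart in both sample types, but nothing is read from this, because it was chosen on a contrast with the same normal samples. Of the other cells, 1 of 8 alveolar type 1 markers (Pdpn, log2 fold change 1.56, adjusted p = 0.0216) and 2 of 6 alveolar macrophage markers (Siglec5 and Ctsk, 3.63 and 2.32) were called higher, and 3 of 5 dendritic cell markers (Ccl22, Ccr7 and H2-Eb1, -2.91, -3.40 and -1.73, edgeR) were called lower, where 7.36% of all genes were called lower, while 0 club, ciliated, basal, squamous or endothelial markers were called. The summed level of the 8 type 1 markers was 285 to 1949 CPM in normal LCM samples and 1274 to 1652 CPM with mild dysplasia, and in whole lung 290.6 to 2328 CPM and 1570 to 3058 CPM. With the mean of the type 1 markers as a covariate, the log2 fold change of Sftpc was -0.20 (standard error 1.12, adjusted p = 0.976) and 0 of 9 genes were called.

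High-grade samples were compared with normal samples in the same model. Of the 9 genes tested 0 were called, and across all genes 0.0192% were called in either direction. At an unadjusted p under 0.05 there was 1 of 9 genes, Sftpd, and 1420 of all 15630 genes in either direction. DESeq2 also called 0 of 9. The log2 fold changes had a median of 0.54 and ran from -0.52 for Sftpb to 1.25 for Sftpd (standard error 0.55, adjusted p = 0.516). For Sftpc the log2 fold change was 0.51 with an approximate interval from -1.40 to 2.42 (adjusted p = 0.867, edgeR), which does not show that its levels were alike. For Abca3 the interval was narrower, from -0.77 to 0.90 around 0.06. Without samples 46 and 70 the log2 fold change was 1.45 for Sftpc (adjusted p = 0.708), 1.35 for Sftpd (adjusted p = 0.612) and 0.49 for Sftpb (adjusted p = 0.888, edgeR), and 0 of 9 genes were called.

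**Figure D3:**
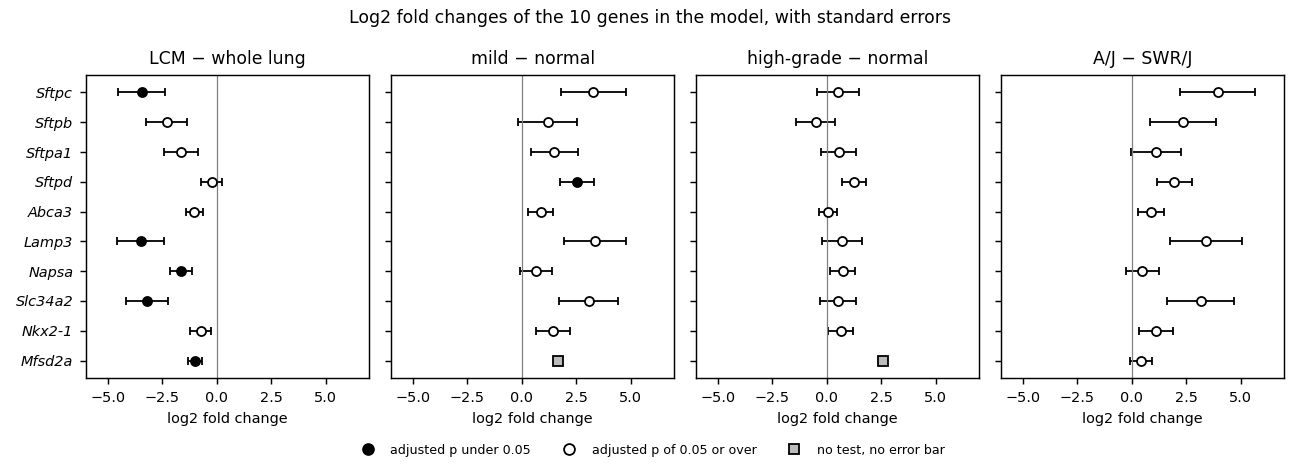
Log2 fold changes of the 10 genes (points) with the standard errors of tested genes (bars) in 4 comparisons of the edgeR model. Filled circles mark an adjusted p under 0.05, open circles an adjusted p of 0.05 or over, and gray squares Mfsd2a where no test was made. LCM samples are lower for all 10 genes, with 5 called, and the high-grade comparison has 0 of 9 called.

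Sftpc in high-grade LCM samples was between 4.45 and 12.51 log2 CPM with a median of 9.26. The 3 A/J samples, 47, 48 and 49, were at 12.51, 12.01 and 10.45, and the 4 SWR/J samples, 40, 41, 42 and 45, were at 4.45, 8.46, 4.79 and 9.26. These A/J samples had a TIN of 58.5 to 68.8 after 14 to 20 μmol NTCU. The SWR/J samples had a TIN of 21.7 to 48.4 after 25 to 50 μmol, so strain, dose and RNA quality cannot be told apart here. How many of all genes set these samples apart by strain was not counted. In high-grade whole lung samples Sftpc was between 9.12 and 13.60 with a median of 12.94, and sample 79, with severe dysplasia, was lowest. The SCC tumor sample (49) had the highest Sftpd of all 25 samples, at 10.43 log2 CPM, while its Sftpc was at 10.45. The carcinoma in situ sample (84), a whole lung section, was at 12.02 for Sftpc and 9.11 for Sftpd.

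Against mild dysplasia, high-grade samples had negative log2 fold changes for 8 of 9 genes, and 0 of 9 were called, where 0.339% of all genes were called in either direction. Sftpc was at -2.78 (standard error 1.33, adjusted p = 0.218), Lamp3 at -2.65 (standard error 1.29, adjusted p = 0.224) and Slc34a2 at -2.56 (standard error 1.21, adjusted p = 0.212, edgeR). At an unadjusted p under 0.05 there were 2 of 9 genes, and 3538 of all 15630 genes in either direction. DESeq2 called 0 of 9. Mild dysplasia is present in SWR/J only, so this comparison relies on the strain term of the model. The difference of the high-grade effect between LCM and whole lung and between strains was tested with interaction terms. For both, 0 of 9 genes were called and 0% of all genes, with 1110 and 668 genes at an unadjusted p under 0.05 by edgeR (DESeq2 was not run for them) and 0 of the 9. Nkx2-1 had the largest interaction with strain, -2.07 (standard error 1.04, adjusted p = 0.978), and with sample type, -1.47 (standard error 0.88, adjusted p = 0.758, edgeR).

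A/J samples were set against SWR/J samples with grade, TIN and sample type in the model. All 10 log2 fold changes were positive, from 0.43 for Mfsd2a to 3.93 for Sftpc with a median of 1.53, but 0 of 10 were called, where 0.365% of all genes were called higher. At an unadjusted p under 0.05 there were 2 of 10 genes, and 2742 of all 15630 genes in either direction. DESeq2 called 3 of the 10 (Sftpc, Lamp3 and Slc34a2), and 961 of all 15630 genes. Sftpc was between 4.64 and 13.25 log2 CPM in A/J with a median of 12.02, and between 4.45 and 14.28 in SWR/J with a median of 9.53, so the strains overlapped over nearly the whole range (3.93, standard error 1.73, adjusted p = 0.242, edgeR). Sftpd was at 1.95 (standard error 0.80, adjusted p = 0.218), Lamp3 at 3.39 (standard error 1.65, adjusted p = 0.288) and Slc34a2 at 3.16 (standard error 1.54, adjusted p = 0.288). A/J samples had a median TIN of 61.1 (range 53.7 to 69.6) and SWR/J samples of 45.1 (range 21.7 to 75.1), and without TIN in the model Sftpb was called higher in A/J (3.36, adjusted p = 0.0363, edgeR). With the mean of the type 1 markers in the model all 10 log2 fold changes were negative, from -3.05 for Sftpa1 to -0.08 for Mfsd2a, with 0 called. Without samples 46 and 70 all 10 stayed positive with 0 called, with Sftpc at 3.45 (adjusted p = 0.283), Sftpd at 1.65 (adjusted p = 0.331) and Napsa lowest at 0.067 (adjusted p = 0.976, edgeR). Of the markers of other cells, Pdpn of type 1 cells (2.24, adjusted p = 0.00178) and H2-Eb1 of dendritic cells (2.33, adjusted p = 0.0170) were called higher in A/J and Ccl22 of dendritic cells lower (-1.77, adjusted p = 0.0432, edgeR), where 0.653% of all genes were called lower.

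Mfsd2a was set against the 9 alveolar genes. In LCM samples it was at 1.67, 2.35 and 1.06 log2 CPM in normal tissue, at 2.78, 3.02 and 2.52 in mild dysplasia and between 3.12 and 4.56 in the 7 high-grade samples with a median of 4.35. The 3 groups did not overlap in LCM samples. How many of all genes set mild and high-grade LCM samples apart was not counted, so nothing is read from this order. In whole lung Mfsd2a was at 1.37, 2.84, 3.35 and -0.03 in normal tissue, at 3.87 and 4.41 in mild dysplasia and between 3.66 and 5.99 in the 6 high-grade samples with a median of 4.96. Here mild and high-grade samples overlapped, and both lay above the normal samples. These ranges apart between high-grade and normal samples were shared by 2.21% of all genes in LCM samples and by 0.889% in whole lung, and nothing is read from this because Mfsd2a was chosen on that contrast. Over both sample types the normal and high-grade ranges overlapped, with normal sample 71 at 3.35 and high-grade sample 41 at 3.12.

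In the model the log2 fold change of Mfsd2a was 2.59 for high-grade against normal samples, 1.66 for mild dysplasia against normal samples and 0.93 for high-grade samples against mild dysplasia. The first 2 of these comparisons share their normal samples. When 1 sample was left out the high-grade value stayed between 2.39 and 2.90, and without samples 46 and 70 it was 2.72. In A/J, the 5 high-grade samples were at 4.35 to 5.23 log2 CPM and the 3 normal samples at 1.37 to 2.35. In SWR/J, the 8 high-grade samples were at 3.12 to 5.99 and the 4 normal samples at -0.03 to 3.35. Mfsd2a was chosen on high-grade against normal samples, so nothing is read from these values or from their stability. How many of all genes had ranges apart within A/J was not counted.

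The level of Mfsd2a and that of the alveolar genes came apart in single samples. High-grade LCM samples 40 and 42 had Mfsd2a at 4.29 and 4.56 log2 CPM, while Sftpc was at 4.45 and 4.79 and Lamp3 at 0.56 and 0.08, among the lowest values of all samples. Normal sample 46, rich in alveolar transcripts, showed the reverse, with Sftpc at 12.23 and Mfsd2a at 1.67. The difference between Mfsd2a and the mean of the 9 genes was therefore -0.15 in sample 42 and 0.14 in sample 40 but -7.30 in sample 46. Within whole lung, sample 76 had the highest Mfsd2a (5.99) together with a Sftpc of 13.60, and sample 72 had the lowest Mfsd2a (-0.03) with a Sftpc of 9.53. Samples 40, 42 and 76 are high-grade and samples 46 and 72 are normal. Mfsd2a was chosen on that contrast, so nothing is read from these differences.

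**Figure D4:**
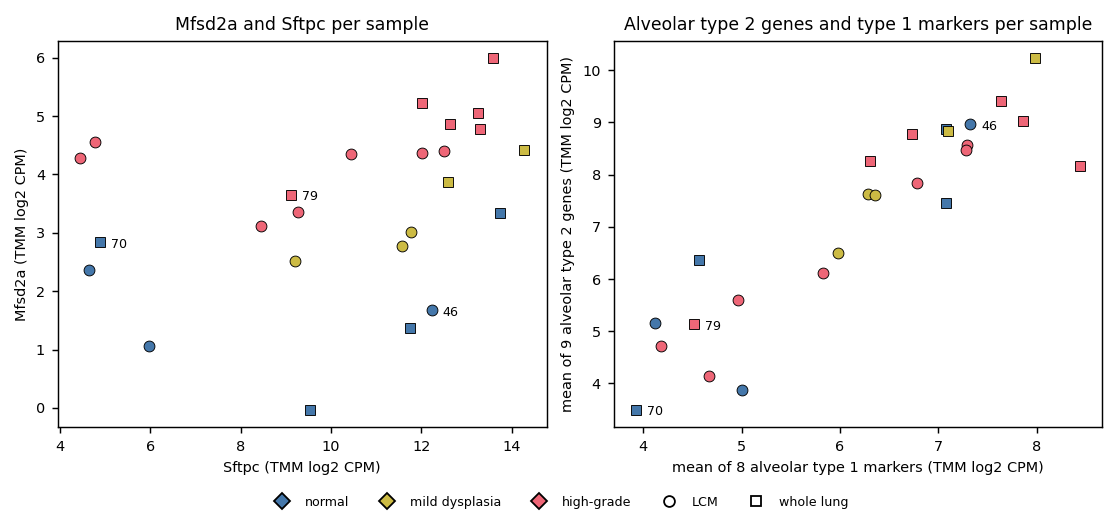
Left, Mfsd2a against Sftpc in the 25 samples. Right, the mean of the 9 alveolar type 2 genes against the mean of 8 alveolar type 1 markers (all TMM log2 CPM). Colors are histologic groups, circles are LCM and squares are whole lung samples, and samples 46, 70 and 79 are labelled. On the left, samples with Sftpc near 12 have Mfsd2a from 1.37 to 5.23, and on the right the points follow a rising band in both sample types. Mfsd2a was chosen on high-grade against normal samples, so nothing is read from its spread.

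Likeness between genes was described within each sample type. Across the 13 LCM samples, Pearson's r between pairs of the 9 alveolar genes had a median of 0.759 over 36 pairs (0.348 to 0.963), and across the 12 whole lung samples a median of 0.896 (0.697 to 0.975). The closest pair was Sftpc and Lamp3 in LCM samples (r = 0.963) and Lamp3 and Slc34a2 in whole lung (r = 0.975). Mfsd2a had a median r with the 9 genes of 0.0552 in LCM samples (-0.226 to 0.395) and 0.491 in whole lung (0.330 to 0.729). The mean of the 9 genes had an r of 0.931 with the mean of the type 1 markers in LCM samples and 0.885 in whole lung, and an r of 0.907 and 0.911 with the endothelial markers. It had an r of -0.410 with the basal cell markers in LCM samples and 0.0977 in whole lung. With the ciliated cell markers r was 0.711 and 0.685, and with the club cell markers 0.489 and 0.436, in the same order. Without samples 46 and 70, pairs of the 9 genes had a median r of 0.765 over 12 LCM samples (0.221 to 0.959) and 0.842 over 11 whole lung samples (0.401 to 0.978). Mfsd2a with the 9 genes then had a median of 0.247 in LCM samples (-0.0093 to 0.502) and 0.594 in whole lung (0.286 to 0.777). The mean of the 9 genes had an r of 0.919 and 0.830 with the type 1 markers, 0.898 and 0.840 with the endothelial markers and -0.152 and -0.037 with the basal cell markers in LCM and whole lung samples. With the ciliated cell markers r was 0.665 and 0.839, and with the club cell markers 0.625 and 0.71, so in whole lung the ciliated value was near that of the endothelial markers. The points of each r share library depth and the mix of tissue in the sample, and the values are descriptions.

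The genes whose pattern was most like that of Sftpc, by the lower of the r values in the 2 sample types, were Cxcl15 (lungkine, a chemokine of lung epithelium), Mlc1, Lamp3, Lrp2 and Ager, with r in LCM samples of 0.945, 0.945, 0.963, 0.923 and 0.940. Of these Ager marks type 1 cells. Slc34a2 was the next gene, at rank 6, while Sftpb was at rank 122 and Sftpd at rank 258. Those most like Mfsd2a were Pmvk (phosphomevalonate kinase of the sterol pathway), Lrg1, Ereg (epiregulin, a ligand of the EGF receptor), Foxk2 and Mmp19, with r in LCM samples of 0.785, 0.779, 0.703, 0.722 and 0.694 and in whole lung of 0.852, 0.758, 0.735, 0.698 and 0.821. Sftpd was the alveolar gene with the best rank in likeness to Mfsd2a, at 605. When samples 46 and 70 were left out, the 5 genes nearest to Sftpc were Cxcl15, Mlc1, Lrp2, Slc34a2 and Lamp3, which are 4 of the first 5 and the gene at rank 6. The 5 nearest to Mfsd2a were then Lrg1, Pmvk, Myrip, Gm7334 and Hgsnat, of which 2 were among the first 5, and Sftpd was at rank 237.

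The other genes of the pathway were followed as lists. Of 14 tested further type 2 genes, 1 (Etv5, a transcription factor, -1.24, adjusted p = 0.0186) was called lower in LCM samples, where 9.05% of all genes were called lower, so that the count is near the background. The list median was -0.81, and 0 were called in each comparison of grade and in that of strain. Of 15 genes of surfactant lipid synthesis, 1 was called lower in LCM samples, namely Lpcat1, which makes the main surfactant phosphatidylcholine (-1.93, adjusted p = 0.00426, edgeR), again near the background, and 0 were called by grade. Their median log2 fold change against normal samples was 0.85 for mild dysplasia and 0.41 for high-grade lesions. Of 8 genes of surfactant clearance, 5 were called lower in LCM samples, among them Marco, a scavenger receptor of alveolar macrophages (-4.52, adjusted p = 0.00336), Gpr116, a receptor that limits surfactant secretion (-2.03, adjusted p = 0.00563), Csf2ra (-1.17, adjusted p = 0.0155) and Abcg1 (-0.99, adjusted p = 0.0161, edgeR).

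Marco also stands among the alveolar macrophage markers. Of 12 lung epithelial transcription factor genes, 2 were called higher in LCM samples (Foxa1, 1.53, and Sox2, a factor of airway epithelium, 1.12, adjusted p = 0.0126 and 0.0476) and 1 was called lower (Cebpb, -0.72, adjusted p = 0.0200). Across all genes 5.6% were called higher and 9.05% lower. In mild dysplasia 2 of the 12 were called higher, Nfib (1.28, adjusted p = 0.0194) and Wwtr1 (1.33, adjusted p = 0.0485, edgeR), where 5.22% of all genes were called higher. Of 14 genes of the response to fasting and glucocorticoid, 2 were called higher in mild dysplasia (Dusp1, 1.50, adjusted p = 0.0216, and Per1, 1.15, adjusted p = 0.0255), 2 were called lower in LCM samples (Zbtb16, -1.87, and Per1, -0.59), and Dusp1 was higher in A/J (1.67, adjusted p = 0.0179, edgeR). The shares of all genes for mild dysplasia and LCM samples are those just given, and 0.365% were called higher in A/J. Of 7 other genes of lysophospholipid handling and related transport, 0 were called in any comparison. Their median log2 fold change in high-grade against normal samples was 0.28. In that comparison and in high-grade samples against mild dysplasia, 0 genes of any list were called, the markers of other cells included.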

How the data were processed

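Total RNA was sequenced from LCM tissue and whole lung sections. The authors trimmed reads with Trimmomatic, aligned them with STAR to the mouse mm9 build and deposited gene-level RSEM expected counts, which are not normalized. Of these values 88.8% were whole (tolerance 1e-09). Expected counts split reads that match several genes, so near-identical genes can share them. Counts of the 25 samples that passed the authors' quality control were rounded. They summed to 2667387 to 16534728 per sample. Genes with an interquartile range above 0 and a sum above 1 of TMM log2 CPM (prior count 2) were kept, 15630 of 37310.

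The quasi-likelihood test of edgeR 4.0.16 (R 4.3.3, robust) was fitted over all 25 samples with histologic group, TIN, strain and sample type. P-values were adjusted over all tested genes (Benjamini-Hochberg, threshold 0.05). The standard error is the absolute log2 fold change divided by the square root of F. Approximate intervals run 2 standard errors to each side of the log2 fold change. DESeq2 1.42.0 was an alternative. The model was checked on simulated counts, where 173 of 200 changed genes were recovered with 6 false calls for LCM against whole lung, 145 with 8 for strain, 131 with 4 for mild dysplasia and 151 with 2 for high-grade against normal samples, at a true log2 fold change of 2 over 15630 genes. DESeq2 recovered 185, 169, 148 and 173 with 41, 45, 41 and 37 false calls in the same order. Python 3.11.15, numpy 2.4.6, scipy 1.17.1, pandas 2.3.3 and matplotlib 3.10.9 made the tables and plots.

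The 10 genes and all lists (further type 2 genes, surfactant lipid synthesis, surfactant clearance, lung epithelial transcription factors, fasting and glucocorticoid response, lysophospholipid handling, and markers of other cells) were chosen with earlier results of these data known. Named were the 10 genes, up to 4 called genes per list with the smallest p, and the 5 genes most like Sftpc and most like Mfsd2a. Gene positions and exon lengths follow the NCBIM37 (mm9) annotation, and promoters the GRCm38.p6 RefSeq annotation.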

Additional observations from a re-analysis of the deposited data

Results flagged for a closer look

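Sample 79, a whole lung section with severe dysplasia, lay below the other 5 high-grade whole lung samples by a gap large relative to the range of the group (Dixon's criterion at the 95% level) for 4 genes. Sftpc was at 9.12 log2 CPM where the next sample was at 12.02, and Sftpd was at 5.72 where the next was at 8.86. Lamp3 was at 1.56 where the next was at 5.71, and Slc34a2 was at 4.96 where the next was at 8.08. These were 4 of 50 groups examined, and chance flags about 1 in 20 groups. The 4 genes move together across samples and are not separate observations.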

How the results depend on the processing

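The number of the 10 genes called in LCM against whole lung samples was 5. It stayed at 5 with RLE size factors, library size alone, filterByExpr and without TIN, and it was 8 by DESeq2, 1 with no filter, 2 with all 40 samples, 2 without samples 42 and 72, 1 without samples 7c and SM1, 0 in A/J samples alone and 1 with the alveolar type 1 mean as a covariate. Without 1 sample it was 0 to 7. For mild dysplasia the 1 call became 4 by DESeq2 and 4 without sample 46. It became 0 with no filter, with all 40 samples, without samples 42 and 72, 7c and SM1, or 46 and 70, without sample 70, without strain and sample type, within LCM or whole lung samples alone, and with the type 1 covariate. Without 1 sample it was 0 to 4. For strain the count of 0 became 3 by DESeq2 and 1 without TIN. The counts of 0 for high-grade samples stayed at 0 under every alternative, and the interaction terms were fitted in edgeR alone. Over all genes, DESeq2 called 3348 against 2289 for LCM against whole lung samples and 961 against 159 for strain. It called 3653 against 1967 for mild dysplasia, 95 against 3 for high-grade against normal samples and 1377 against 53 for high-grade samples against mild dysplasia. Without TIN these were 2553 for strain and 2345 for high-grade samples against mild dysplasia, and with all 40 samples mild dysplasia gave 1. For LCM against whole lung, where 2289 genes were called, the count was 586 in SWR/J and 0 in A/J alone, 1349 with all 40 samples, 1303 without 7c and SM1 and 1430 with the type 1 covariate. With no filter it was 1919 of 27135, and without 42 and 72 it was 2620 of 15624. For strain it was 254 with no filter, 253 with filterByExpr and 47 with the type 1 covariate. For mild dysplasia it was 1010 without 42 and 72, 991 without 7c and SM1, 901 without 70, 3128 without 46, and 0 within either sample type, without strain and sample type, or with the type 1 covariate. With no filter it was 1457 of 27135. For high-grade against normal samples the edgeR counts were 0 to 6. For high-grade samples against mild dysplasia they were 130 with library size alone, 214 in LCM samples alone, 34 with filterByExpr, 13 with no filter and 0 to 2 with all 40 samples, without 42 and 72, 7c and SM1 or 70, in whole lung alone and with the type 1 covariate. Leaving out 1 sample moved the last of these from 53 to 1230 without 76, 250 without 75, 144 without 81 and otherwise to 0 to 74. It moved strain from 159 to 430 without 76 and 96 without 40, LCM to 1488 without 41, and mild dysplasia to 663 without 2B, 676 without 74, 792 without 7, 857 without 73, 926 without 5, 1069 without 72, 1124 without 7c and 1292 without 40. Whole lung alone gave a log2 fold change of 2.47 for Mfsd2a in mild dysplasia.

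Log2 fold changes that turned sign follow, and the cause was not tested. With the alveolar type 1 mean as a covariate, the sign turned for LCM against whole lung samples in Sftpb (0.89), Sftpa1 (0.86), Sftpd (1.46) and Nkx2-1 (0.86), for A/J against SWR/J in Sftpc (-1.12), Sftpb (-2.18), Sftpa1 (-3.05), Sftpd (-0.087), Abca3 (-0.73), Lamp3 (-1.87), Napsa (-1.57), Slc34a2 (-1.09), Nkx2-1 (-0.84) and Mfsd2a (-0.080), for mild dysplasia against normal in Sftpc (-0.20), Sftpb (-2.14), Sftpa1 (-1.95), Abca3 (-0.54), Lamp3 (-0.52), Napsa (-0.97) and Nkx2-1 (-0.64), for high-grade against normal samples in Sftpc (-0.24), Sftpa1 (-0.36), Abca3 (-0.35), Lamp3 (-0.40), Slc34a2 (-0.11) and Nkx2-1 (-0.43) and for high-grade samples against mild dysplasia in Sftpb (0.88), Sftpa1 (1.59), Abca3 (0.19), Lamp3 (0.11) and Nkx2-1 (0.21). With all 40 samples, the sign turned for LCM against whole lung samples in Sftpb (0.077) and Sftpd (0.45), for A/J against SWR/J in Sftpb (-0.47), Sftpa1 (-0.37) and Napsa (-0.32), for mild dysplasia against normal in Sftpb (-0.15) and Sftpa1 (-0.26), for high-grade against normal samples in Sftpb (0.31), Sftpa1 (-0.80) and Abca3 (-0.26) and for high-grade samples against mild dysplasia in Sftpb (0.45). In A/J samples alone, the sign turned for LCM against whole lung samples in Sftpc (0.069), Sftpa1 (1.67), Sftpd (0.73) and Lamp3 (0.87). In LCM samples alone, the sign turned for high-grade against normal samples in Abca3 (-0.48) and Nkx2-1 (-0.25). In whole lung samples alone, the sign turned for high-grade against normal samples in Sftpb (0.90) and for high-grade samples against mild dysplasia in Napsa (-0.90). With library size alone, the sign turned for high-grade samples against mild dysplasia in Napsa (-0.082). Without TIN, the sign turned for high-grade samples against mild dysplasia in Napsa (-0.14). Without sample 46, the sign turned for high-grade against normal samples in Sftpb (0.73). Without sample 70, the sign turned for high-grade against normal samples in Abca3 (-0.10). Without samples 42 and 72, the sign turned for high-grade against normal samples in Abca3 (-0.062) and for high-grade samples against mild dysplasia in Napsa (-0.13). Without samples 46 and 70, the sign turned for high-grade against normal samples in Sftpb (0.49). Without samples 7c and SM1, the sign turned for high-grade against normal samples in Abca3 (-0.047) and for high-grade samples against mild dysplasia in Napsa (-0.24). Without strain and sample type, the sign turned for high-grade samples against mild dysplasia in Napsa (-0.0052). When 1 sample was left out, the sign turned for Sftpd in LCM against whole lung samples (range -0.40 to 0.17), for Sftpb (-0.77 to 0.73) and Abca3 (-0.10 to 0.63) in high-grade against normal samples, and for Napsa in high-grade samples against mild dysplasia (-0.46 to 0.39). No paired analysis was possible because replicate numbers were given in accession order and the labels name no shared animal. Alternatives that leave out samples 46 or 70, use the type 1 covariate or leave out each normal and high-grade sample were chosen after seeing the data.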

Other observations

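The 15 samples that did not pass the authors' quality control held 17051 to 1965373 counts each. They entered the fits with all 40 samples, given among the alternatives, and no other comparison. Sftpc had 4 to 774 counts in them and was above 0 in all 15. Mfsd2a had 0 to 23 counts. The sample with the most Sftpc counts was 8, LCM tissue graded as mild dysplasia, at 774 counts of 204965. The sample with the most Mfsd2a counts was 50, a high-grade LCM sample from an A/J mouse, with 23 counts of Mfsd2a and 66 of Sftpc among 843744. Sample 2, normal LCM tissue, held 5073 counts of Sftpa1 but 128 of Sftpc, and sample 25, a high-grade LCM sample, held 138 counts of Napsa but 17 of Sftpc.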
